A study of Mus musculus with 24 samples.

Results

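The DNA repair and checkpoint genes described here were 41 mouse genes named by symbol, in 8 groups by repair pathway. Their members were the probe sets of 2 Affymetrix chip types, MOE430A and MOE430B, that are annotated to exactly 1 gene and carry 1 of these symbols. Of the 41 genes, 40 had such a probe set (88 probe sets in all, among 18193 genes with a probe set of their own), and Xrcc2 was not analysed here. A filter on low signals kept 71 of the 88 probe sets and 39 of the 41 genes. Bard1, the partner of Brca1, had 1 probe set that did not pass it, with signals between 30.6 and 266 in the 12 cultures.

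The study profiled primary mouse skeletal muscle cells with and without the retinoblastoma gene Rb, as cycling myoblasts and as differentiated myotubes, in 4 groups of 3 cultures, each culture on both chip types (24 arrays). MCK-cre Rb-flox myotubes (cultures J, K and L) carry a floxed Rb gene and Cre under the MCK (muscle creatine kinase) promoter, which becomes active as muscle cells differentiate. They and the wild-type myotubes (G, H and I) came from 3 independent cell lines per genotype and were taken on day 6 in 5% horse serum. Rb-null myoblasts (D, E and F), which the labels call unable to differentiate properly, and wild-type myoblasts (A, B and C) are biological triplicates of satellite cell origin grown in 20% fetal bovine serum with bFGF. Myotubes and myoblasts therefore differ in medium as well as in stage. Ages, strains, how Rb was removed from the myoblasts and whether the wild-type myotubes carry Cre or floxed Rb are not given in the sources used here. The labels put purity at 99 to 100% by desmin and MyoD staining and name fibroblasts as the possible contaminant.

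DNA breaks are rejoined by 2 routes. Homologous recombination copies an intact sister chromatid and is largely confined to cells that are replicating or have replicated their DNA, whereas end joining ligates the ends at any time. Mismatch repair, the Fanconi anaemia pathway and the ATR checkpoint serve replicating DNA, and the genes of several of these pathways are known targets of the E2F transcription factors that Rb restrains. Cells that fuse into myotubes leave the cell cycle for good.

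Rb1, the deleted gene, had a signal of 590 to 802 in MCK-cre Rb-flox myotubes against 3265 to 3664 in wild-type myotubes (log2 change -2.11, adjusted p = 0.00109). In Rb-null myoblasts it was 260 to 712 against 1440 to 2879 in wild-type myoblasts, without overlap but not called (log2 change -1.82, adjusted p = 0.352). Whether its probe set lies in the deleted part is not given in the sources used here. All 5 myotube markers tested were higher in wild-type myotubes than in wild-type myoblasts, and 2 of the 5 were lower in MCK-cre Rb-flox than in wild-type myotubes. Every array had been scaled to a trimmed mean of 1500, so values are relative to the other genes on the same array. The arrays of the 6 myotube cultures and of culture B share the last of the scan days, and those of the other myoblasts are earlier. Signals of 18S ribosomal RNA on MOE430A averaged 8403 ± 2440 on the last day and 311 ± 119 before it (SD, 7 and 5 arrays). The comparison of the myotube groups lies within 1 scan day, but comparisons of myotubes with myoblasts rest on culture B wherever scan day is taken into account.

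Signals below are the deposited MAS5 intensities. Changes are differences of log2(signal + offset), with an offset of 130 on MOE430A and 206 on MOE430B, and therefore understate the change of a gene with low signals. Called genes are those with an adjusted p below 0.05 in limma (Benjamini-Hochberg, over all 31931 probe sets tested). Each gene is given by 1 representative probe set unless stated. In RNA from whole cultures, fewer cells that express a gene and less of its RNA per cell cannot be told apart.

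The 5 promoter stretches below are shown because several of these genes are known E2F targets. RefSeq promoters (GRCm38.p6) of 250 bases before and 50 after the start were matched by symbol for 33 of the 41 genes, 37 promoters in all, and none was found for Rad54b, Xrcc2, Exo1, Rad50, Nbn, Fancd2, Usp1 and Prkdc. An E2F-type motif, TTCCCGC or TTGGCGC on either strand, lay in 15 of the 37 (40.5%), against 6.81% of all 32851 promoters. In the 250 bases before the start alone it lay in 8 of the 37, against 5.62% of all. Split by the call between the myotube groups, given below, it lay in 10 of 19 promoters of called genes and in 5 of the 18 others. Before the start alone it lay in 3 of the 19 and in 5 of the 18. The 18 include Bard1, which has the motif before the start but was not tested. The CHR hexamer TTTGAA was in 1 of the 37 (2.70%, against 17.9% of all) and the letters CCAAT in 17 of the 37 (45.9%, against 37.4%). A match is a description of the letters, not evidence of binding. Shown, 5′ to 3′ on the strand of the gene with the E2F-type motif in capitals, are the 4 genes with the motif upstream of the start and the largest change between the myotube groups, followed by Chek2, the gene with a promoter and the smallest change.
Topbp1, chr9:103305148-103305247, plus strand: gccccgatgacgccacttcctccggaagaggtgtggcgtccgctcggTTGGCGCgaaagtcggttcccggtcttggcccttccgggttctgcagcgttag
Brca2, chr5:150522406-150522505, plus strand: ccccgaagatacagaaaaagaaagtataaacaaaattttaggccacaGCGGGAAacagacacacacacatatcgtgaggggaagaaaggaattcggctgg
Xrcc6, chr15:82016269-82016368, plus strand: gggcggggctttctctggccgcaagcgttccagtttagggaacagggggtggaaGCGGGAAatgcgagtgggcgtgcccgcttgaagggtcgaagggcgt
Fancg, chr4:43010302-43010401, minus strand: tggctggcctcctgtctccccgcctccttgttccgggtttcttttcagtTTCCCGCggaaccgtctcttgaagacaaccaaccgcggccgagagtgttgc
Chek2, chr5:110839784-110839883, plus strand: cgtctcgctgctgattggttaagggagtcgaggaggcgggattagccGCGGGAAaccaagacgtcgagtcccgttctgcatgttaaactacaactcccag
The Chek2 stretch holds the same letters, read on the other strand, as the Fancg stretch.

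Between MCK-cre Rb-flox and wild-type myotubes, 20 of the 41 genes (of 39 tested) were called, all of them higher in MCK-cre Rb-flox myotubes. Among all 14331 genes tested, 9.9% were called, 6.13% as higher and 3.77% as lower. The median log2 change over the 39 genes was 0.89, against 0.01 over all genes. Calls were made in every pathway group, for 5 of 12 genes of homologous recombination (10 tested), 1 of 2 of the MRN complex, 2 of 6 of the Fanconi anaemia pathway, 2 of 3 of mismatch repair, 2 of 5 of base excision and single-strand break repair, 2 of 4 of end joining, 4 of 7 of the damage checkpoint and 2 of 2 of replication damage tolerance. The filter did not pass any gene through 1 group alone, and 20 genes lay above its level on all 12 arrays. For 10 genes every wild-type myotube signal was at or below it (340 to 499 on MOE430A and 484 to 658 on MOE430B).

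Markers of other states moved together with this comparison. All 5 proliferation markers tested (Mki67, Top2a, Cdk1, Ccna2 and Pcna) were called higher in MCK-cre Rb-flox myotubes, with a summed signal of 48591 to 53434 against 3208 to 4195 in wild-type myotubes. Of 9 fibroblast markers 7 were tested and 2, Col3a1 and Fn1, were called higher. The sum over the list was 34591 to 52371 in MCK-cre Rb-flox myotubes and 12122 to 27747 in wild-type myotubes. Most of it was Fn1, with means of 28030 and 11835. Of the others, none of them called, Dcn and Pdgfra had negative changes (-0.24 and -0.29). Col1a1, Col1a2 and Thy1 had positive ones (0.80, 0.02 and 0.29). The lowest proliferation marker in wild-type myotubes, Cdk1, had a signal of at least 8328 in MCK-cre Rb-flox myotubes and 36.1 in wild-type myotubes. The lowest fibroblast marker, Col1a1, had at least 80.5 in MCK-cre Rb-flox myotubes and 46.9 in wild-type myotubes. Signals of 36.1, 46.9 and 80.5 lie below the offset of either chip type and do not show whether the RNA was present. None of the 5 macrophage and 2 endothelial markers tested was called. The ratio of 3′ to 5′ actin signals on MOE430A, a measure of RNA integrity, was 0.879 ± 0.079 in MCK-cre Rb-flox myotubes and 0.533 ± 0.096 in wild-type myotubes (SD, n = 3 each). The part of these differences in the result was not tested.

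**Figure D1:**
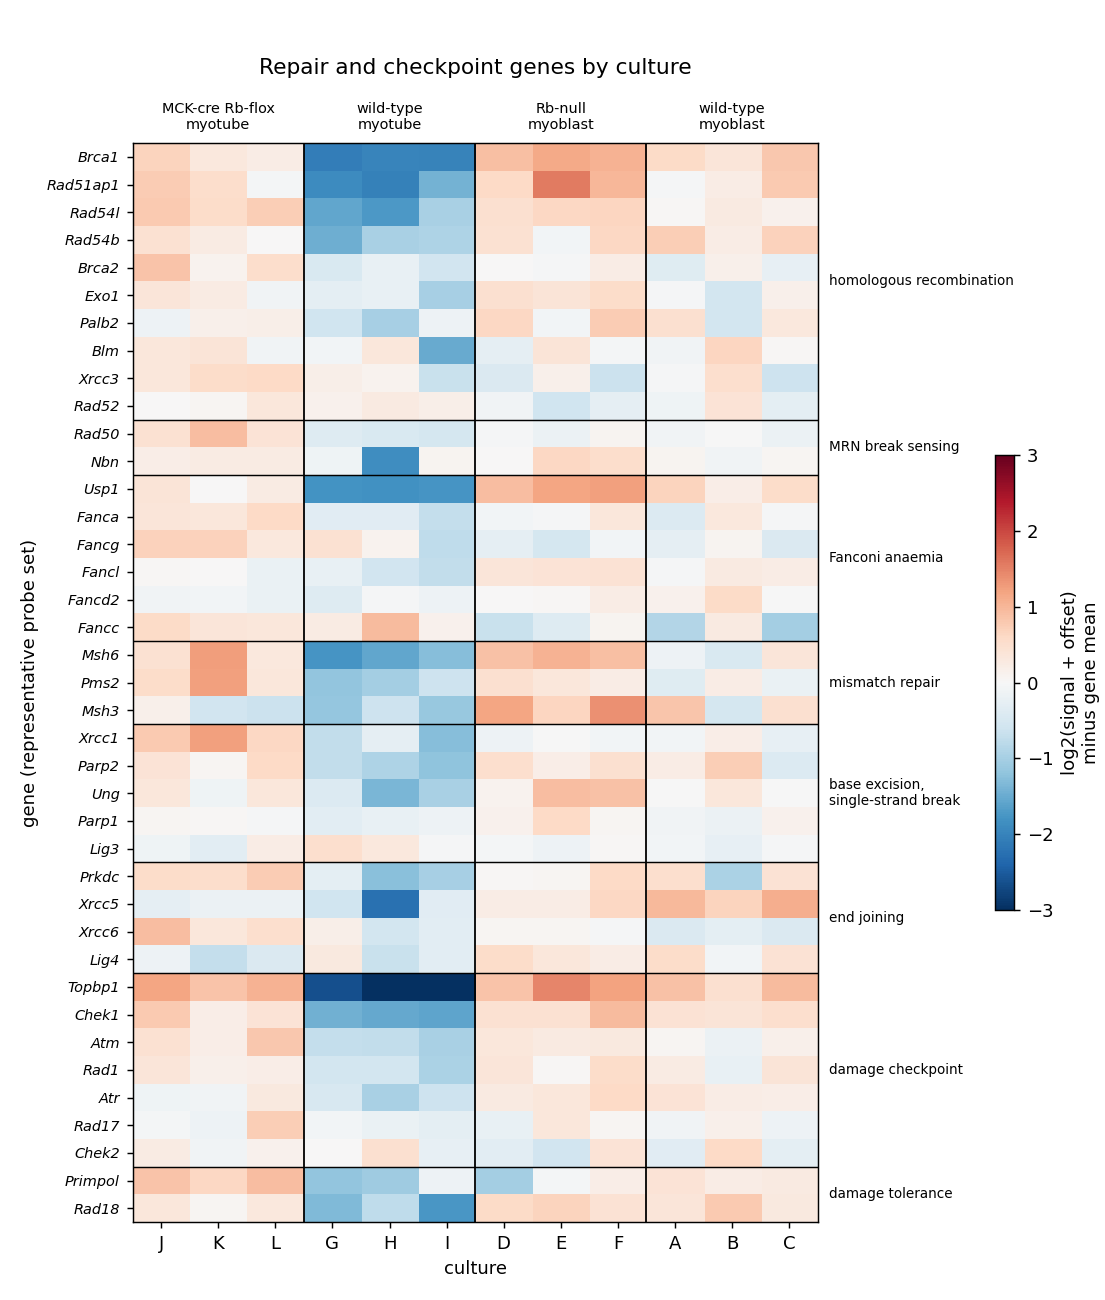
The 39 genes tested (rows, by pathway group) in the 12 cultures (columns). Colour is log2(signal + offset) minus the gene's mean over the cultures. The 3 wild-type myotube cultures hold most of the blue cells, with a median over genes of -0.45 to -0.74, and the other 9 cultures lie between -0.0025 and 0.44.

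The checkpoint genes held the gene with the largest change of the set, Topbp1, which activates the ATR kinase at stalled forks. Its signal was 3885, 3027 and 3501 in MCK-cre Rb-flox myotubes against 154, 67.7 and 69.8 in wild-type myotubes, and 3049, 4747 and 3953 in Rb-null myoblasts against 3099, 2308 and 3263 in wild-type myoblasts. The wild-type myotubes stood apart from the other 9 cultures, which overlapped one another. The change between the myotube groups was 4.00 ± 0.24 (SE, log2; 16-fold; adjusted p = 6.16e-07). Chek1, the kinase that ATR phosphorylates to hold the cycle, had 639, 384 and 466 in MCK-cre Rb-flox myotubes, against 35.2, 25.3 and 19.0 in wild-type myotubes. It lay at 479 to 727 in Rb-null and at 454 to 501 in wild-type myoblasts, so that again the wild-type myotubes alone were low (log2 change between the myotube groups 1.98 ± 0.29, adjusted p = 0.00101). Atm, the kinase that answers double-strand breaks, had signals of 2073, 1715 and 2647 in MCK-cre Rb-flox myotubes against 850, 834 and 686 in wild-type myotubes, and 1876, 1779 and 1832 in Rb-null myoblasts against 1536, 1273 and 1652 in wild-type myoblasts. Neither pair of groups overlapped, and the change between the myotube groups was called (1.29 ± 0.21, adjusted p = 0.00236). Rad1, part of the ring-shaped 9-1-1 clamp, was called at 0.94 ± 0.26 (adjusted p = 0.0422), but the call was lost without any 1 culture except B (adjusted p 0.0512 to 0.129).

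The other 3 checkpoint genes were not called between the myotube groups. Atr, the kinase of replication stress, had signals of 757 to 1049 in MCK-cre Rb-flox myotubes against 361 to 560 in wild-type myotubes, which do not overlap (0.71 ± 0.25, adjusted p = 0.104). A second probe set of Atr, on MOE430B, was called (1.67 ± 0.44, adjusted p = 0.0328). Rad17, which loads the clamp, had a log2 difference of 0.36 ± 0.25 (adjusted p = 0.455). Chek2, the kinase downstream of ATM, had the smallest change of the 7. Its signals were 1280, 978 and 1158 in MCK-cre Rb-flox myotubes, 1070, 1511 and 870 in wild-type myotubes, 812, 669 and 1434 in Rb-null myoblasts and 805, 1664 and 828 in wild-type myoblasts. The 4 groups overlapped (log2 change between the myotube groups 0.01 ± 0.33, adjusted p = 0.992).

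In homologous recombination, Brca1, which promotes the cutting back of broken ends, changed most. Its signals were 1544, 1199 and 1106 in MCK-cre Rb-flox myotubes against 121, 141 and 136 in wild-type myotubes, and 1863, 2198 and 2074 in Rb-null myoblasts against 1449, 1236 and 1741 in wild-type myoblasts. The myotube groups did not overlap, and neither did the myoblast groups. The change between the myotube groups was 2.42 ± 0.23 (5.34-fold, adjusted p = 3.61e-05). Rad51ap1 and Rad54l, accessory factors of strand exchange, were called at 2.19 ± 0.36 (adjusted p = 0.00225) and 2.11 ± 0.25 (adjusted p = 0.000224). Rad51ap1 had 857, 704 and 423 in MCK-cre Rb-flox myotubes against 25.8, 10.9 and 86.0 in wild-type myotubes, and 741, 1575 and 1023 in Rb-null myoblasts against 431, 547 and 871 in wild-type myoblasts. All 3 wild-type myotube signals lay below the offset of 130, which limits the fitted change. Rad54b, a relative of Rad54l, was called at 1.35 ± 0.30 (adjusted p = 0.0127), a call lost without culture J (adjusted p = 0.0516). Brca2, a tumour suppressor required for recombination, was called at 0.92 ± 0.25 (adjusted p = 0.0352) but not without C, D, E, G, H, I, J or L (adjusted p 0.0501 to 0.135).

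The other 5 recombination genes tested were not called between the myotube groups. Exo1, a nuclease that trims broken ends, had a log2 difference of 0.67 ± 0.28 (adjusted p = 0.179), and Palb2, the bridge between BRCA1 and BRCA2, one of 0.63 ± 0.31 (adjusted p = 0.265). Blm, a helicase that dissolves joined chromosomes, and Xrcc3, a late-acting recombination factor, had changes of 0.63 ± 0.41 and 0.63 ± 0.31 (adjusted p = 0.418 and 0.266). Blm was at 266 in culture I, against 924 and 1280 in the other wild-type myotubes G and H. Rad52, which anneals single strands, had the smallest change. Its signals were 605, 635 and 798 in MCK-cre Rb-flox myotubes, 670, 758 and 701 in wild-type myotubes, 553, 352 and 478 in Rb-null myoblasts and 541, 851 and 471 in wild-type myoblasts, with overlap in both comparisons of genotype (-0.06 ± 0.28 between the myotube groups, adjusted p = 0.941).

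Of the MRN complex, which senses and tethers broken ends, Rad50 and Nbn were on the list. Rad50, its structural subunit, had 3610, 5089 and 3505 in MCK-cre Rb-flox myotubes against 1950, 1875 and 1757 in wild-type myotubes, and 2519, 2305 and 2759 in Rb-null myoblasts against 2432, 2569 and 2306 in wild-type myoblasts. Unlike Topbp1, Chek1 and Brca1, its signals in MCK-cre Rb-flox myotubes were above those of all other cultures (1.06 ± 0.18 between the myotube groups, adjusted p = 0.00329). Nbn, the subunit that recruits ATM, had 854, 896 and 887 in MCK-cre Rb-flox myotubes and 660, 108 and 786 in wild-type myotubes. It had 738, 1181 and 1109 in Rb-null myoblasts and 780, 672 and 758 in wild-type myoblasts. Culture H, at 108, lay far below the other wild-type myotubes, and Nbn was not called (0.86 ± 0.42, adjusted p = 0.256).

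In the Fanconi anaemia pathway, which repairs links between the DNA strands, Usp1 stood out. It encodes the enzyme that removes ubiquitin from FANCD2 and PCNA. Its signals were 4427, 3433 and 4055 in MCK-cre Rb-flox myotubes against 882, 867 and 898 in wild-type myotubes, and 6483, 7789 and 8060 in Rb-null myoblasts against 5477, 3874 and 4998 in wild-type myoblasts. Neither pair of groups overlapped, and the order of the means ran from Rb-null myoblasts over wild-type myoblasts and MCK-cre Rb-flox myotubes to wild-type myotubes, with the middle groups overlapping. The change between the myotube groups was 2.01 ± 0.18 (4.03-fold, adjusted p = 2.12e-05), and all 3 probe sets of Usp1 were called. Fanca, a subunit of the core ubiquitin ligase, was called at 0.89 ± 0.23 (adjusted p = 0.0324), a call lost when any 1 of the 6 myotube cultures was left out (adjusted p 0.0534 to 0.109).

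The other members of the ligase and its substrate were not called by their representative probe sets. Fancg, a core subunit, had a log2 difference of 0.63 ± 0.32 (adjusted p = 0.285), and Fancl, the catalytic subunit, one of 0.47 ± 0.22 (adjusted p = 0.238). Fancd2, the protein that is ubiquitinated, had 3387, 3435 and 3157 in MCK-cre Rb-flox myotubes and 2745, 3541 and 3276 in wild-type myotubes, and 3692, 3763 and 4293 in Rb-null myoblasts and 4038, 5531 and 3644 in wild-type myoblasts. Both pairs overlapped (0.06 ± 0.18 between the myotube groups, adjusted p = 0.897). Fancc, a core subunit, had 1798, 1536 and 1494 in MCK-cre Rb-flox myotubes and 1406, 2347 and 1280 in wild-type myotubes, and 678, 860 and 1230 in Rb-null myoblasts and 568, 1411 and 506 in wild-type myoblasts. Both pairs of groups overlapped (-0.01 ± 0.35 between the myotube groups, adjusted p = 0.991).

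Mismatch repair was represented by Msh6 and Msh3, which recognise mismatches, and by Pms2, the nuclease subunit. Msh6 had 2388, 4215 and 2154 in MCK-cre Rb-flox myotubes against 406, 493 and 633 in wild-type myotubes, and 3233, 3664 and 3306 in Rb-null myoblasts against 1533, 1198 and 2230 in wild-type myoblasts. Both pairs were apart, and the change between the myotube groups was 2.21 ± 0.28 (4.61-fold, adjusted p = 0.000373). Pms2 had 1535, 2519 and 1303 in MCK-cre Rb-flox myotubes against 369, 424 and 605 in wild-type myotubes, and 1452, 1302 and 1182 in Rb-null myoblasts against 746, 1182 and 862 in wild-type myoblasts. Culture K was the highest of the 12, as it was for Msh6, and the myotube groups did not overlap (1.65 ± 0.28, adjusted p = 0.00305). Msh3 had low signals of 269, 110 and 101 in MCK-cre Rb-flox myotubes, against 30.9, 104 and 33.5 in wild-type myotubes. It had 682, 429 and 807 in Rb-null myoblasts against 513, 120 and 369 in wild-type myoblasts. The myotube groups overlapped and Msh3 was not called between them (0.61 ± 0.41, adjusted p = 0.431).

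In base excision and single-strand break repair, Xrcc1, the scaffold that gathers the enzymes at a nick, had 2539, 3482 and 2239 in MCK-cre Rb-flox myotubes against 789, 1142 and 506 in wild-type myotubes. Its myoblast signals were close together, at 1258, 1395 and 1330 in Rb-null and at 1336, 1644 and 1167 in wild-type myoblasts, so that the MCK-cre Rb-flox myotubes were above all other cultures (1.65 ± 0.27, 3.13-fold, adjusted p = 0.00222). Parp2, which marks strand breaks with poly(ADP-ribose), was called at 1.31 ± 0.29 (adjusted p = 0.0143), but not without culture I or L (adjusted p 0.0521 and 0.0547). Ung, the glycosylase that removes uracil, had non-overlapping myotube groups, at 407 to 613 in MCK-cre Rb-flox and 99.5 to 312 in wild-type myotubes, and was not called (1.09 ± 0.34, adjusted p = 0.0657). Lig3, the ligase that acts with XRCC1, had 1913, 1670 and 2461 in MCK-cre Rb-flox myotubes and 3052, 2646 and 2054 in wild-type myotubes, and 1995, 1861 and 2158 in Rb-null myoblasts and 1967, 1745 and 2034 in wild-type myoblasts. Both pairs overlapped, with a difference of -0.34 ± 0.21 between the myotube groups (adjusted p = 0.381). Parp1, the main poly(ADP-ribose) polymerase, had 5297, 5241 and 4977 in MCK-cre Rb-flox myotubes and 4060, 4333 and 4525 in wild-type myotubes, and 5543, 7710 and 5312 in Rb-null myoblasts and 4746, 4500 and 5562 in wild-type myoblasts. The myotube groups were apart by little, and the change of 0.26 ± 0.17 was not called (adjusted p = 0.443).

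End joining had 2 called genes, both with adjusted p-values near the threshold. Prkdc, the DNA-dependent kinase, had 807, 785 and 945 in MCK-cre Rb-flox myotubes against 385, 137 and 188 in wild-type myotubes, and 521, 536 and 835 in Rb-null myoblasts against 770, 201 and 725 in wild-type myoblasts. The myotube groups were apart and the myoblast groups overlapped (1.47 ± 0.40, adjusted p = 0.0375; not called without D, E, H, I, J, K or L, adjusted p 0.0525 to 0.122). Xrcc6 (Ku70) was called at 0.81 ± 0.23 (adjusted p = 0.0467) but not without A, C, D, E, F, H, I, J or L (adjusted p 0.0635 to 0.168). Its partner in the Ku ring that caps broken ends, Xrcc5 (Ku80), had 497, 530 and 532 in MCK-cre Rb-flox myotubes and 366, 29.5 and 463 in wild-type myotubes, the low value being culture H, and was not called (0.85 ± 0.41, adjusted p = 0.254). Lig4, the ligase of this route, had 1089, 663 and 851 in MCK-cre Rb-flox myotubes and 1556, 696 and 944 in wild-type myotubes, and 1892, 1608 and 1460 in Rb-null myoblasts and 1887, 1142 and 1717 in wild-type myoblasts. Both pairs overlapped (-0.21 ± 0.28, adjusted p = 0.749).

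Both genes of replication damage tolerance were called. Primpol, a primase that restarts synthesis beyond damage, had 1642, 1361 and 1719 in MCK-cre Rb-flox myotubes against 240, 276 and 715 in wild-type myotubes, and 295, 770 and 955 in Rb-null myoblasts against 1145, 975 and 1028 in wild-type myoblasts. The MCK-cre Rb-flox myotubes were again above all other cultures, and the Rb-null myoblasts lay below the wild-type myoblasts (1.61 ± 0.35 between the myotube groups, 3.04-fold, adjusted p = 0.0121). Rad18, the ligase that ubiquitinates PCNA at stalled forks, had 526, 406 and 512 in MCK-cre Rb-flox myotubes against 77.4, 175 and 25.0 in wild-type myotubes. It had 640, 696 and 575 in Rb-null myoblasts and 538, 770 and 508 in wild-type myoblasts, so that with this probe set the wild-type myotubes alone were low (1.51 ± 0.31, adjusted p = 0.00922). A second probe set of Rad18, on MOE430B, was low in both myotube groups, with 373, 178 and 173 in MCK-cre Rb-flox myotubes and 74.5, 183 and 155 in wild-type myotubes, against 2089, 1828 and 1459 in Rb-null myoblasts and 1535, 719 and 1321 in wild-type myoblasts.

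**Figure D2:**
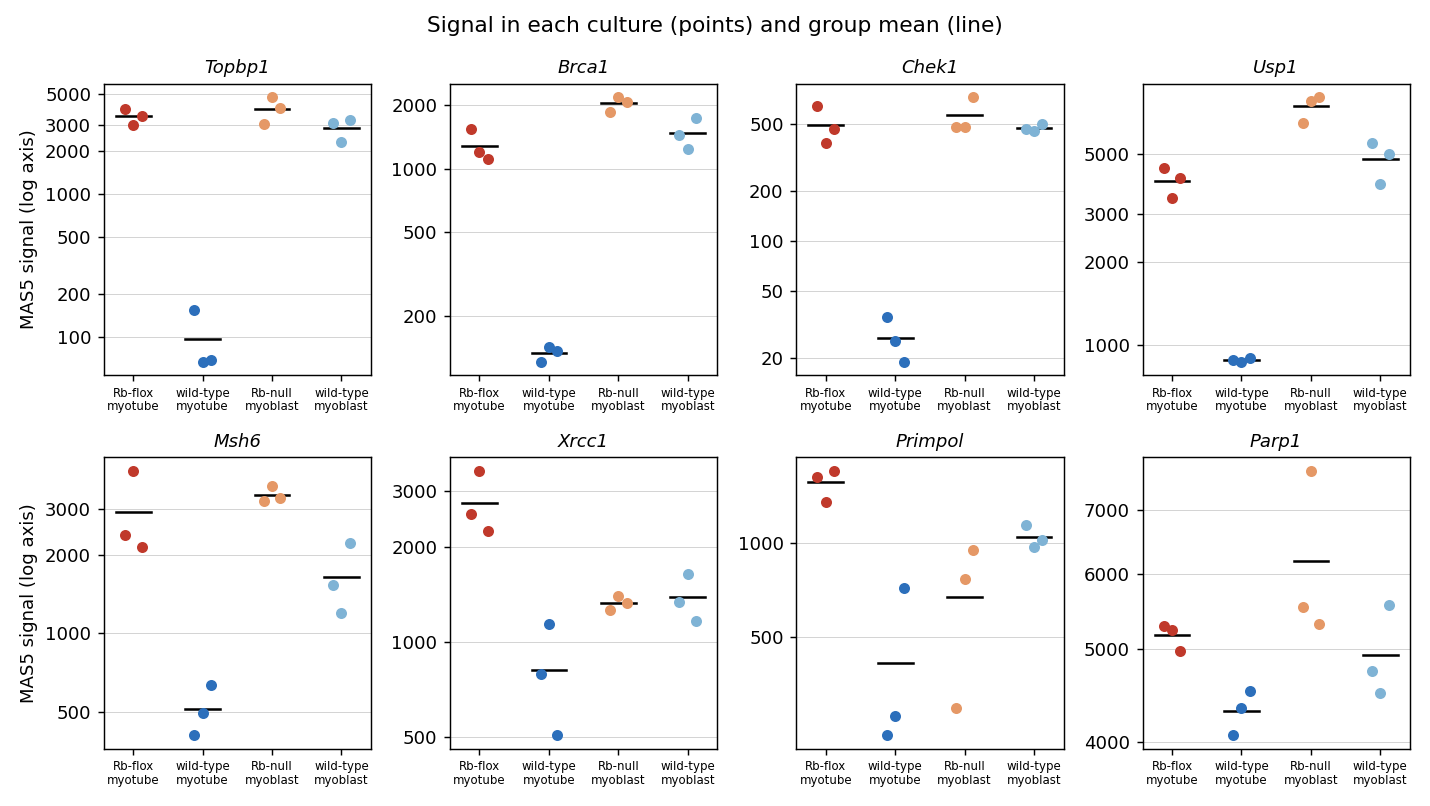
Signals of 8 genes in each culture (points) with the group mean (line) on a log axis. Topbp1, Brca1, Chek1, Usp1 and Msh6 were low in wild-type myotubes alone, Xrcc1 and Primpol were highest in MCK-cre Rb-flox myotubes, and Parp1 lay between 4060 and 7710 in all 12 cultures.

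Of 18 genes with 2 or more tested probe sets, 12 had probe sets whose log2 changes differed by more than 1 in at least 1 comparison, 9 of them between the myotube groups. No pair was called in opposite directions. Counted by probe set, 30 of the 71 tested were called higher between the myotube groups and 0 lower, where 8.21% of all probe sets were called, 4.96% as higher and 3.25% as lower. All tested probe sets were called for 2 of the 18 genes (Atm and Usp1), some for 9 and none for 7.

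Topbp1 had the widest split. Its second probe set, on MOE430B, had 1151, 1234 and 1302 in MCK-cre Rb-flox myotubes and 1559, 1525 and 221 in wild-type myotubes (0.39 ± 0.57, adjusted p = 0.763). There the 2 groups overlapped, and the 16-fold difference above rests on the MOE430A probe set. For Brca1, 3 of 4 probe sets were called (1.81 to 2.42), and the fourth had 546, 524 and 582 in MCK-cre Rb-flox myotubes and 1164, 939 and 488 in wild-type myotubes (-0.48 ± 0.37, adjusted p = 0.512). Chek1 was called with both MOE430A probe sets (1.98 and 1.82) and not with the MOE430B one (0.69 ± 0.52, adjusted p = 0.506). Pms2 was called with its MOE430A probe set but not with the 2 on MOE430B, at 0.03 ± 0.24 and -0.24 ± 0.23 (adjusted p = 0.962 and 0.618).

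Rad50 rose by 1.06 with its representative probe set, and the other gave 0.01 ± 0.44 (adjusted p = 0.994), and Rad18 was called with 2 of 3 (1.51 and 1.32, against 0.37 ± 0.31). Rad51ap1 was called with 2 of 3 (2.19 and 2.12, against 1.32 ± 0.39 at adjusted p = 0.0550). Atm rose with both, by 1.29 and 2.60. Fancd2, not called with its representative, was called with 1 of its 4 probe sets, which had 2048, 2283 and 1614 in MCK-cre Rb-flox myotubes against 1112, 1044 and 966 in wild-type myotubes (0.80 ± 0.19, adjusted p = 0.0220). Fancc ranged over 3 probe sets between -1.17 and -0.01 and Lig3 over 4 between -0.79 and -0.25, with none called. Msh3 differed between its 2 probe sets in comparisons with myoblasts, as given below.

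**Figure D3:**
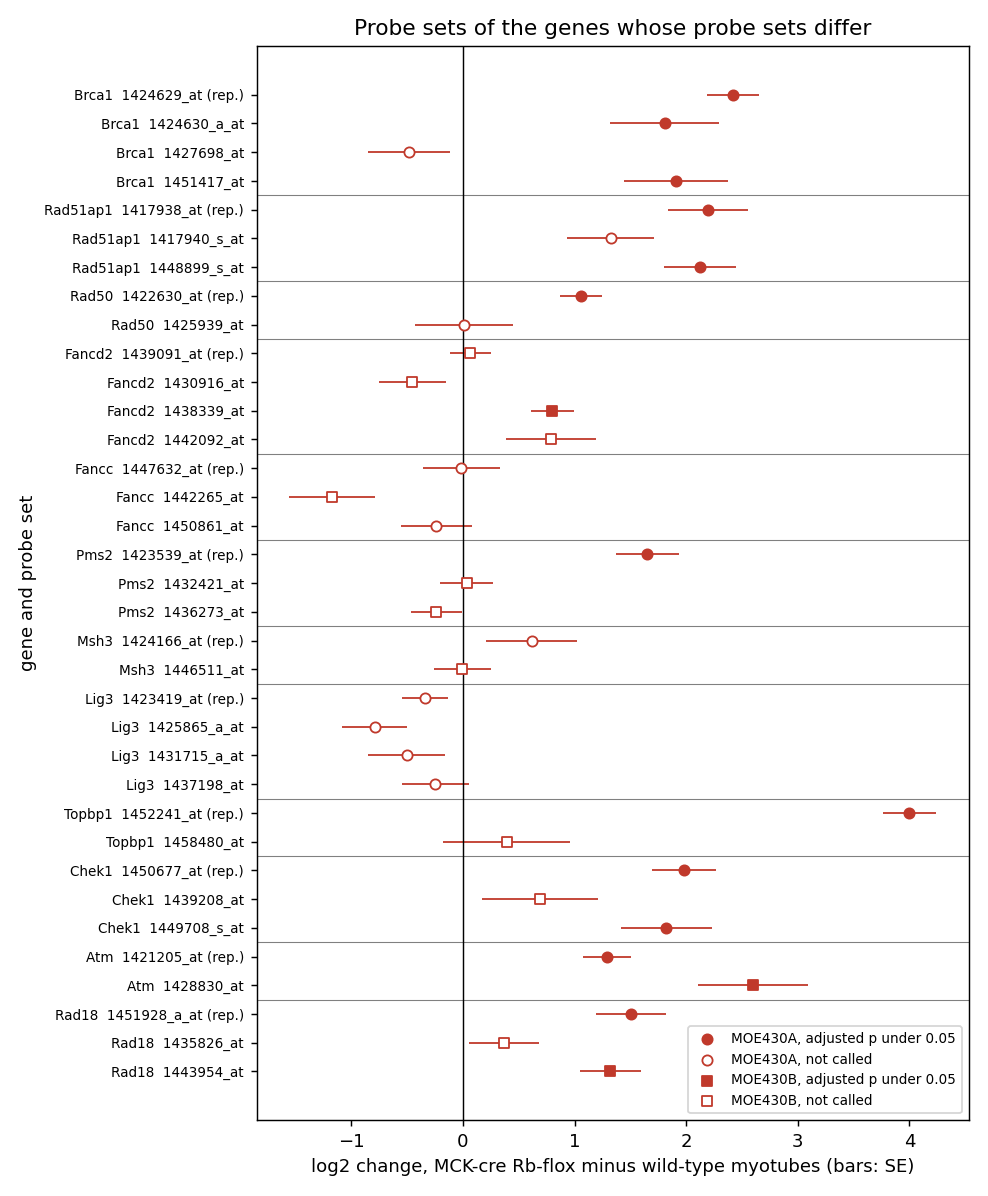
Log2 change between MCK-cre Rb-flox and wild-type myotubes for each tested probe set of the 12 genes whose probe sets differ (points; bars are the SE of the fit). Filled points were called, all to the right of 0, and the representative probe set is marked "rep." The 2 points of Topbp1 lie at 4.00 and 0.39.

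Between Rb-null and wild-type myoblasts, none of the 39 genes was called, as was 0% of all genes (limma). At an unadjusted p under 0.05 there were 3 genes, Msh6, Usp1 and Exo1, all higher in Rb-null myoblasts, where 4.8% of all genes had such a p in either direction and 2.66% as higher. The smallest adjusted p was 0.685, for Msh6 (log2 change 1.02 ± 0.28). Of the 39 genes, 29 had a positive change, against 48.7% of all genes, and the median was 0.21 against -0.01. The groups did not overlap for 8 genes higher in Rb-null myoblasts, Brca1, Exo1, Rad54l, Fancl, Usp1, Msh6, Xrcc6 and Atm (6.51% of all genes), and for 2 lower, Xrcc5 and Primpol (5.58%). Within the first scan day of MOE430A, with 3 Rb-null and 2 wild-type cultures, 30 of 33 genes had positive changes, and their median was 0.27 against 0.04 over all genes on that chip type. None of the 33 was called there (smallest adjusted p 0.430, for Msh6). The share of positive changes over all genes within that day is not given here. These within-day values were added after the data had been seen.

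**Figure D4:**
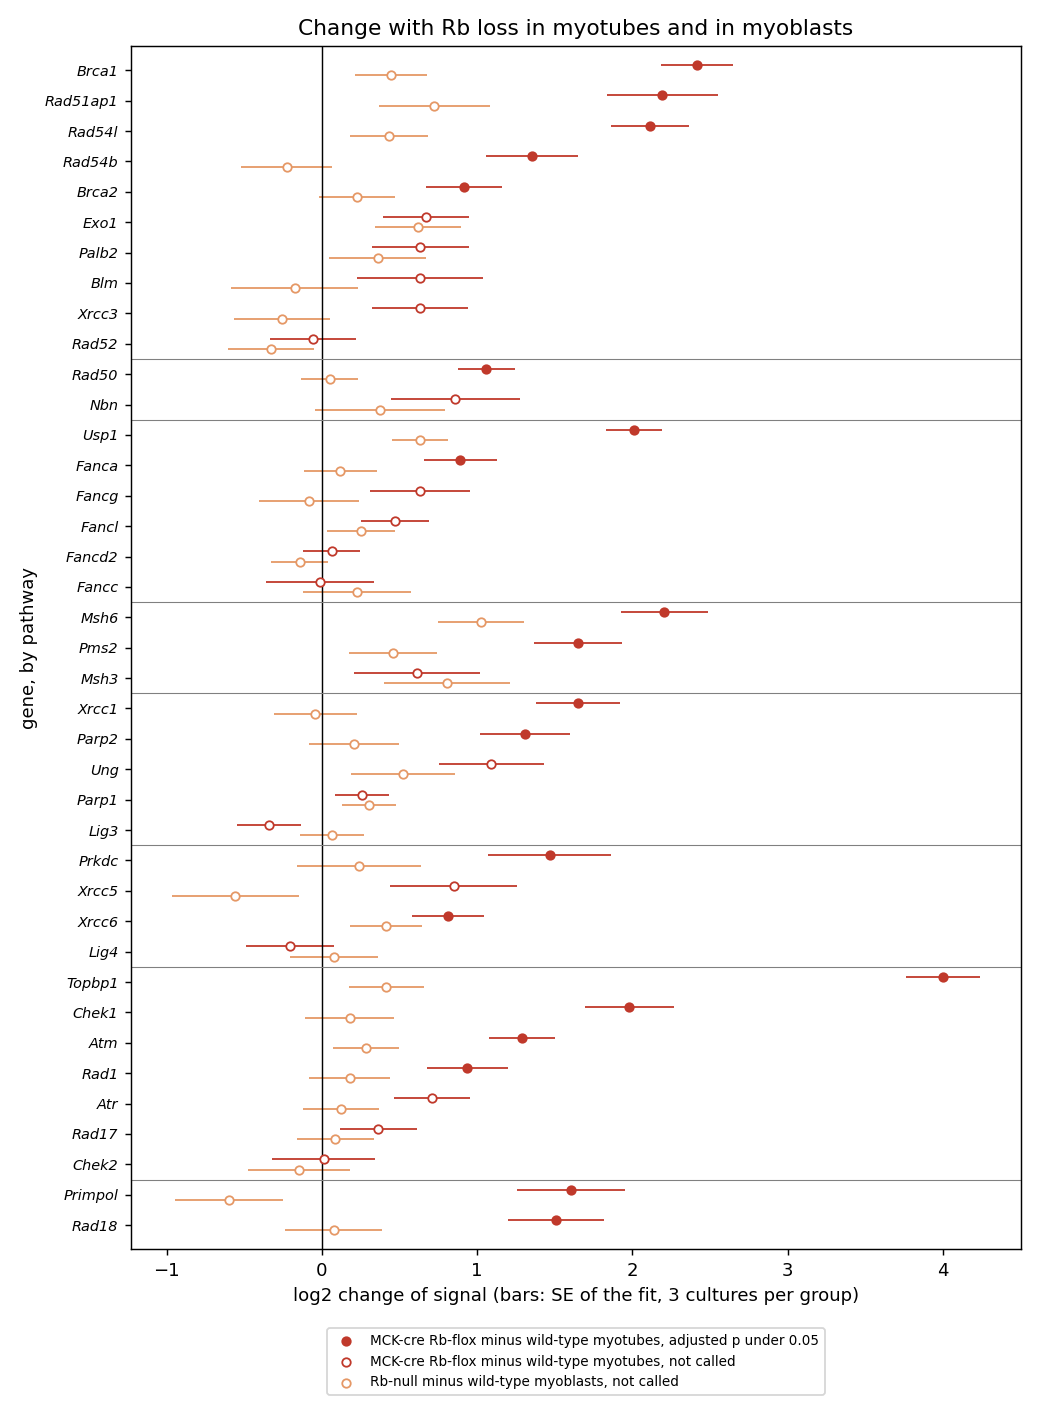
Log2 change of each gene between MCK-cre Rb-flox and wild-type myotubes (red) and between Rb-null and wild-type myoblasts (orange), by pathway group, with the SE of the fit as bars. Filled points were called. The myotube values reach 4.00 and the myoblast values lie between -0.60 and 1.02.

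The change with Rb loss differed between myotubes and myoblasts for 7 of the 39 genes by an interaction term, all with the larger value in myotubes, where 1.66% of all genes were called, 1.14% with the larger and 0.516% with the smaller value in myotubes. These were Topbp1 (difference of the log2 changes 3.58 ± 0.34, adjusted p = 0.000266), Brca1 (1.97 ± 0.33, adjusted p = 0.0104), Usp1 (1.38 ± 0.26, adjusted p = 0.0189) and Rad54l (1.68 ± 0.36, adjusted p = 0.0362). Primpol (2.20 ± 0.49, adjusted p = 0.0477), Xrcc1 (1.69 ± 0.38, adjusted p = 0.0499) and Chek1 (1.80 ± 0.41, adjusted p = 0.0499) were just inside the threshold. Primpol had opposite signs, 1.61 in myotubes and -0.60 in myoblasts, where the change was not called and culture D was the lowest. Msh6, which had the largest change in myoblasts, had a difference of 1.18 ± 0.40 that was not called (adjusted p = 0.195). The term was not called with the second probe set of Topbp1 (-0.16, adjusted p = 0.971). Nor was it with the other probe sets of Brca1 (1.44, 1.17 and -0.58, adjusted p 0.425 to 0.742). Those of Chek1 beside the representative were not called either (1.36 and -0.075, adjusted p = 0.333 and 0.984). With their representative probe sets, Topbp1 and Brca1 stayed called without any 1 culture. The calls ended for Usp1 without A, C, D, E or J, for Chek1 without any but F or K, for Primpol without any but F or I, for Rad54l without any but I or K and for Xrcc1 without any but H (adjusted p 0.0501 to 0.149 over these).

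Differentiated against cycling wild-type cells is a comparison that shares the wild-type myotube cultures with that of the myotube groups. Here 19 of the 41 genes were called, all lower in wild-type myotubes, where 27.7% of all genes were called, 14.5% as lower and 13.2% as higher. The median log2 change was -0.73, against 0.14 over all genes. Topbp1 fell by 3.74 ± 0.24 (adjusted p = 6.52e-07), Brca1 by 2.60 and Usp1 by 2.26. Rad51ap1 fell by 2.11, Xrcc5 by 1.97, Chek1 by 1.95, Rad18 by 1.76, Rad54b by 1.67 and Rad54l by 1.57. The second probe set of Topbp1 was not called (-0.11, adjusted p = 0.91). Neither was a further probe set of Brca1 (0.67, adjusted p = 0.199), Chek1 (-0.62, adjusted p = 0.403), Rad51ap1 (-0.74, adjusted p = 0.184) or Rad18 (-0.69, adjusted p = 0.0813). The representative probe sets of the mismatch repair genes Msh6, Msh3 and Pms2 all fell, by 1.45, 1.23 and 0.83. The other 2 probe sets of Pms2 had positive changes that were not called (0.27, adjusted p = 0.435, and 0.54, adjusted p = 0.102). Parp2 fell by 1.14, Primpol by 1.10, Ung by 1.03, Atr by 0.97, Rad1 by 0.83, Atm by 0.81 and Fancl by 0.67. Calls were made in all pathway groups but the MRN complex, whose genes Rad50 and Nbn had negative changes that were not called (-0.37 and -0.64). The other 20 tested genes were not called.

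A block for scan day cannot alter the log2 changes between the myotube groups, which lie within 1 scan day. For wild-type myotubes against wild-type myoblasts it leaves culture B as the only myoblast reference. Loss of a call through scan day and through this smaller reference cannot be told apart. Over all genes, calls fell from 3968 to 1945 with scan day as a block. Of the 19 calls here, 9 remained. Those of Rad54b, Fancl, Msh3, Msh6, Ung, Xrcc5, Atm, Atr, Rad1 and Primpol did not (adjusted p 0.0615 to 0.642). Within the last scan day alone the median of wild-type myotubes minus culture B was -0.76. Leaving out a single culture ended the calls of Fancl (any but G, J, K or L), Msh3 (A, C, D, G, H or I), Pms2 (any but I, K or L), Ung (A, B, C, E, F, H or I), Rad1 (A, C, H or I), Primpol (A, B, C, G or H) and Atm (C), with adjusted p-values of 0.0501 to 0.164. The second Msh3 probe set, on MOE430B, had 1535, 1939 and 1432 in wild-type myotubes and 684, 812 and 1467 in wild-type myoblasts, a change in the other direction that was not called (0.67, adjusted p = 0.0702). The proliferation markers were all 5 called lower in wild-type myotubes, with sums of 3208 to 4195 against 40974 to 52751 in wild-type myoblasts. Of 7 fibroblast markers 1 was called higher and 2 lower, with sums of 12122 to 27747 in wild-type myotubes against 42294 to 51516 in wild-type myoblasts. The macrophage marker Csf1r was called higher (0.82, adjusted p = 0.0493), 1 of 5 tested. The actin 3′ to 5′ ratio on MOE430A was 0.533 ± 0.096 in wild-type myotubes against 1.10 ± 0.06 in wild-type myoblasts (SD, n = 3 each). The part of these differences in the result was not tested.

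MCK-cre Rb-flox myotubes were also set against both kinds of myoblast, comparisons that share the MCK-cre Rb-flox cultures. Against Rb-null myoblasts, 5 of the 41 genes were called, where 16.9% of all genes were, 8.2% as higher and 8.7% as lower. Primpol (1.10 ± 0.35, adjusted p = 0.0486), Xrcc1 (0.96 ± 0.27, adjusted p = 0.0300) and Rad50 (0.64 ± 0.18, adjusted p = 0.0328) were higher in MCK-cre Rb-flox myotubes. Msh3 (-1.42 ± 0.41, adjusted p = 0.0325) and Usp1 (-0.89 ± 0.18, adjusted p = 0.00666) were lower. The second Msh3 probe set had a change in the other direction that was not called (0.415, adjusted p = 0.283). By probe set, 4 of the 71 were called higher and 6 lower, where 15.3% of all probe sets were called, 6.61% as higher and 8.67% as lower. Those called beside the representatives were of Rad18 (-2.17, adjusted p = 0.000862), Lig3 (-1.33, adjusted p = 0.0209), Fancc (-1.23, adjusted p = 0.0462), Usp1 (-0.85, adjusted p = 0.0270) and Xrcc3 (1.27, adjusted p = 0.0297). The median was -0.07 against 0.16 over all genes. With each array centred on its median, 0 genes were called higher and 4 lower. With scan day as a block 0 were called, where the calls over all genes fell from 2422 to 139. Leaving out single cultures ended the calls of Msh3 (D, F, K or L), Rad50 (D, E, F or K), Xrcc1 (D, E, F, J or K) and Primpol (any but F, G, H or I), with adjusted p-values of 0.0526 to 0.196.

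Against wild-type myoblasts, 3 of the 41 genes were called, all higher in MCK-cre Rb-flox myotubes, where 17% of all genes were called, 8.49% as higher and 8.51% as lower. Xrcc6 changed by 0.97 ± 0.23 (adjusted p = 0.0134), Xrcc1 by 0.92 ± 0.27 (adjusted p = 0.0351) and Rad50 by 0.69 ± 0.18 (adjusted p = 0.0228). By probe set, 3 of the 71 were called higher and 2 lower, where 15.8% of all probe sets were called, 7.11% as higher and 8.73% as lower. The 2 lower ones were the second Rad18 probe set (-1.62, adjusted p = 0.00430) and one of Lig3, with 163, 140 and 172 in MCK-cre Rb-flox myotubes against 531, 654 and 719 in wild-type myoblasts (-1.40, adjusted p = 0.0153). The median was 0.13 against 0.16 over all genes. None of the 3 was called with scan day as a block (adjusted p 0.107 to 0.30), where Prkdc was (1.56, adjusted p = 0.0383). Over all genes, the count fell from 2436 to 848 with the block. The 3 calls also ended for Xrcc6 without C or J, for Xrcc1 without A, C, J or K and for Rad50 without A, C or K (adjusted p 0.0519 to 0.131). Topbp1, Brca1 and Chek1, low in wild-type myotubes, were among the 36 genes not called here.

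Markers moved with both comparisons. Against Rb-null myoblasts, 3 of 5 macrophage markers were called higher in MCK-cre Rb-flox myotubes (Cd68, Csf1r and Adgre1), with a sum over the list of 4587 to 5726 in MCK-cre Rb-flox myotubes and 2222 to 3408 in Rb-null myoblasts. The proliferation markers Mki67, Top2a and Ccna2, 3 of 5, were called lower, with sums of 48591 to 53434 in MCK-cre Rb-flox myotubes and 66327 to 70597 in Rb-null myoblasts, and 1 of 7 fibroblast markers (Pdgfra) was called higher. Against wild-type myoblasts, 2 of 5 macrophage markers (Cd68 and Csf1r) were called higher, with a sum of 2127 to 4100 in wild-type myoblasts. Of the proliferation markers Pcna was called higher and Mki67 and Top2a lower, with sums of 40974 to 52751 in wild-type myoblasts. The actin ratio on MOE430A was 0.879 ± 0.079 in MCK-cre Rb-flox myotubes, 1.02 ± 0.05 in Rb-null myoblasts, and for wild-type myoblasts 1.10 ± 0.06 (SD, n = 3 each). The part of these differences in the results was not tested.

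A further 79 repair and checkpoint genes outside the 41 were examined as pathway context, of which 68 had a probe set and 66 were tested. Between the myotube groups 17 were called higher and 4 lower in MCK-cre Rb-flox myotubes, where 6.13% of all genes were called higher and 3.77% lower. Their median was 0.30, against 0.01 over all genes. Clspn (2.81 ± 0.23, adjusted p = 7.93e-06) and Timeless (2.80 ± 0.24, adjusted p = 1.14e-05), fork proteins that help activate CHEK1, were highest. Atrip, the partner of ATR (-1.72 ± 0.35, adjusted p = 0.00859), and Ercc1, a nuclease subunit of nucleotide excision repair (-1.26 ± 0.27, adjusted p = 0.0102), fell. Nucleotide excision repair had 1 of its 11 tested genes called higher and 2 lower, with a median of -0.17. Between Rb-null and wild-type myoblasts 0 of the 66 were called, as was 0% of all genes. At an unadjusted p under 0.05 (limma) there were 7, against 4.8% of all genes. Wild-type myotubes had 4 higher, led by Polb (1.12) and Ercc2 (0.98), and 19 lower, led by Timeless (-2.94) and Wee1 (-2.85), than wild-type myoblasts. Among all genes 13.2% were called higher and 14.5% lower in that comparison. Ercc1 was also called lower in MCK-cre Rb-flox myotubes than in Rb-null (-1.92) and wild-type myoblasts (-1.64), as was Atrip (-1.43 and -1.45).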

How the data were processed

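RNA of 12 cultures was hybridised to the chip types MOE430A and MOE430B. The deposited values are MAS5 signal intensities, per the submitters' processing notes, with no version given; from the values, every array was scaled to the same trimmed mean. Detection calls were not used here. Probe sets were named through the platform annotation, and those with several genes or none were left unnamed. The members and gene lists were chosen with earlier results of these data known.

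Intensities were taken as log2(signal + offset), the offset being the 20th percentile of the chip type. Probe sets above the 40th percentile of their array on at least 3 of 12 arrays were kept. limma 3.58.1 in R 4.3.3 was fitted over 31931 probe sets with 1 mean per group and a trend (lmFit, eBayes), after a test on simulated data. The 14331 genes were each given by 1 probe set: those without an _x or _s suffix first, MOE430A before MOE430B, then the highest mean. Values by culture are given for the largest and the smallest absolute change between the myotube groups in each pathway, and for genes whose probe sets differ by over 1 (log2); other values were added after they had been seen. Of the 79 further genes, the 2 largest per direction are named. The labels call the myotubes independent cell lines and the myoblasts biological triplicates, with no donors given, so p-values measure the spread between these cultures. Offset, filter, normalization, scan day, choice of probe set, chip type and each culture were varied. No paired analysis was possible because no replicate letter occurs in more than 1 group.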

Additional observations from a re-analysis of the deposited data

Results flagged for a closer look

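The change with Rb loss differed between myotubes and myoblasts for 7 genes by the interaction term of the limma model. The difference of the log2 changes, myotubes minus myoblasts, was 3.58 for Topbp1, 2.20 for Primpol, 1.97 for Brca1, 1.80 for Chek1, 1.69 for Xrcc1, 1.68 for Rad54l and 1.38 for Usp1. Topbp1 alone was called under every alternative tried, but none of these used its second probe set, on MOE430B. That probe set was not called in this term (-0.16, adjusted p = 0.971). Brca1 lost its call with the mean of its probe sets (1.0, adjusted p = 0.229). The 5 proliferation markers tested were all called in the same term, and their part in it was not tested.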

How the results depend on the processing

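Between the myotube groups the count of 20 genes ranged from 14 to 20 without 1 culture and from 17 to 21 otherwise, all higher. Of the 20, 11 genes were called in all of them, and Brca2, Rad54b, Rad50, Fanca, Parp2, Xrcc6, Prkdc, Chek1 and Rad1 were not. For Topbp1, none of them used its second probe set. The median moved to 1.10 with an offset of 16 and ranged from 0.85 to 1.01 without 1 culture, highest without G. For wild-type myotubes against wild-type myoblasts the count was 9 with scan day as a block and 12 to 19 without 1 culture (12 without C), and the median was -0.88 with an offset of 16. MCK-cre Rb-flox myotubes against Rb-null myoblasts gave 3 genes with an offset of 16, 3 without the filter, 0 with scan day as a block and 1 to 5 without 1 culture (1 to 3 without D, E, F, J, K or L), and a median of -0.27 after median centring, which lowered the median of all genes to -0.04 from 0.16. Against wild-type myoblasts there were 1 with the block, 7 with a separate fit per chip type and 0 to 6 without 1 culture (0 without C, 1 without A or J, 6 without B), and the median was 0.26 with a filter at the 60th percentile and -0.032 after median centring. The interaction gave 4 without the filter, 3 after median centring and 2 to 5 without 1 culture (2 without A, C, D, E or J, 3 without B, G or L, 4 without H), and its median was 0.91 with an offset of 16, 0.61 with the block and 0.61 to 0.97 without 1 culture. With scan day as a block, calls over all genes also fell in the comparisons of myotubes with myoblasts, as given above. Quantile normalization turned the 3 higher and 2 lower calls against Rb-null myoblasts into 2 and 3. The E2F-type motif count was 8 before the start alone. Reversed were Msh3 in wild-type myotubes against wild-type myoblasts (0.46 without the filter, 0.67 at the 60th percentile), Msh3 against Rb-null myoblasts (0.42 at the 60th percentile) and the interaction of Chek1 (-0.075 at the 60th percentile), since another probe set then represents the gene. The number of arrays limits precision.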
